A study of Homo sapiens with 18 samples.

Results

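The 44 human collagen genes are described here through the GR binding regions (GBR) called at them. A GBR was assigned to a collagen gene when its summit lay inside the gene body or within 50 kb of it. Of the 9533 GBR called in cells depleted of Hic-5, 63 met this rule, and they lay at 26 of the 44 genes. The other 18 collagen genes had no GBR in that list.

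The binding of GR, the glucocorticoid receptor, was mapped by ChIP-seq in the U2OS-GRα line, human osteosarcoma cells with a stable GRα transgene, so that receptor level and cell background belong to a single engineered line. All cells received a pair of siRNAs for 48 h and then 100 nM dexamethasone (dex), a synthetic glucocorticoid, for 1 h. The 6 siRNA combinations were siNS/siNS (nonspecific control), siHic5/siNS, siCHD9/siHic5, siBRM/siHic5, siCHD9/siNS and siBRM/siNS, each with 2 ChIP libraries and 1 input library. Hic-5 is a coregulator of GR, CHD9 and BRM are chromatin remodelers, and siRNA lowers a protein without removing its gene. The lists hold no measure of how far each protein was depleted. The replicates of a combination were pooled before the deposited calls were made, so every combination is represented by 1 list. From these lists the spread between replicates is unknown, and no test between combinations was possible. The authors did test differences in GR binding between combinations with DiffBind, and those results are not used here.

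Collagens are the main structural proteins of the extracellular matrix. Their chains wind into helices that assemble into fibrils, into the networks of basement membranes, or into filaments and membrane anchors, depending on the type. Glucocorticoids are known for lowering collagen synthesis in skin and bone, and GR acts by binding DNA at glucocorticoid response elements (GRE) or together with other bound factors, mostly far from gene starts.

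The strongest collagen GBR lay in an intron of COL4A2 and, with the fourth strongest, flanked a tandem repeat made of GRE matches. A GRE match was defined as 2 inverted 6-base sites 3 bases apart, in which at most 1 defined base differed from the consensus. In the GRCh38 reference, 22 copies of the same 15-base match, each with 1 mismatch, lay on chr13:110480854-110481969, a stretch of 1116 bp. Neighboring copies were most often 30 bp apart (12 of the steps), and 85.6% of the bases of the stretch were identical to the base 30 bp further on. The copies were present at 19.7 per kb, and 15 more 15-base sites differed from the repeated match by 1 base. The repeat is shown because both COL4A2 summits lay at the ends of its whole length. A regular part of it, between the 2 peaks and inside neither, reads as follows, with the GRE matches in capitals (chr13:110481239-110481418, plus strand, 180 bases).
COL4A2 repeat: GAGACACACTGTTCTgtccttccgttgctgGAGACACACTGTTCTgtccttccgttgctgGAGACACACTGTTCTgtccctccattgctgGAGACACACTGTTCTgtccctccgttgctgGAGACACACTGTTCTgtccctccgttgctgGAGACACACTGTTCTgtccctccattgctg

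The summit of the stronger COL4A2 GBR lay 4 bp from the first base of the repeat, and that of the weaker one lay 87 bp beyond its last base. The 2 summits were 1.20 kb apart. Counted by their first base, 5 copies were in the peak of the first, the last of them only in part. The peak of the second covered 1 copy, and the 16 copies between them were in neither peak. Reads from near-identical copies cannot be placed with certainty, and the number of copies in U2OS-GRα cells was not measured.

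The 120 bases around the summit are shown for the 3 strongest shared GBR (also called in siNS/siNS) and the 3 strongest blocked GBR (with no siNS/siNS peak), leaving out 1 chromosome that is not printed here. Blocked thus means only that no siNS/siNS peak was called. The set of blocked GBR that the authors used for most of their comparisons was instead defined by a significant change in binding. Sites of a gene are numbered from the strongest down, and capitals mark GRE matches. All are plus-strand GRCh38 reference sequence. The positions are chr13:110480799-110480918 for COL4A2 site 1, chr5:178448410-178448529 for COL23A1 site 1, chr2:237434957-237435076 for COL6A3 site 1, chr5:178527505-178527624 for COL23A1 site 2, chr10:69769364-69769483 for COL13A1 site 1 and chr21:45490467-45490586 for COL18A1 site 1.
COL4A2 site 1 (shared): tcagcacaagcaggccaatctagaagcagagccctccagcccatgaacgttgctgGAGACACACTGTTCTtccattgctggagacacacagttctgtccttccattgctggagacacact
COL23A1 site 1 (shared): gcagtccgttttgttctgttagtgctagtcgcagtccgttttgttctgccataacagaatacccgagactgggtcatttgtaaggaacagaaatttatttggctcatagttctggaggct
COL6A3 site 1 (shared): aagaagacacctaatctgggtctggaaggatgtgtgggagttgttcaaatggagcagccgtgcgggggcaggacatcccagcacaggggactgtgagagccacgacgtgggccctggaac
COL23A1 site 2 (blocked): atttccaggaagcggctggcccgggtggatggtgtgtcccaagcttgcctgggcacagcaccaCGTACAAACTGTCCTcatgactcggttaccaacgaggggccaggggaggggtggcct
COL13A1 site 1 (blocked): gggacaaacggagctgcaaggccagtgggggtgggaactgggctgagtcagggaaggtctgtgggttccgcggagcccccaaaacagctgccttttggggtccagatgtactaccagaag
COL18A1 site 1 (blocked): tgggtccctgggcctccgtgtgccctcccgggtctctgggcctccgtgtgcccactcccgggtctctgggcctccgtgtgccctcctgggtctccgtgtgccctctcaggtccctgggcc

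Of these 6 sequences, those of COL4A2 site 1 and COL23A1 site 2 held 1 GRE match each, and the others held none. The COL13A1 sequence held 1 AP-1 consensus (TGACTCA or TGAGTCA on either strand) and the COL23A1 site 2 sequence held 1 ETS consensus. The repetition seen in COL18A1 site 1 and COL23A1 site 1 was measured as the best share of identical bases between the 300 bp around the summit and the same stretch moved by 10 to 100 bp. This share was 63.2% at a step of 28 bp for COL18A1 site 1 and 58.5% at 30 bp for COL23A1 site 1. It was 54.8% and 51.9%, both at 30 bp, for COL4A2 sites 1 and 2. COL6A1 site 4, in an intron of PCBP3, had 90.2% at a step of 96 bp. A share of at least 50% was found at 5 of the 63 collagen GBR (7.94%) and at 194 of all 9533 siHic5/siNS GBR (2.04%), and a share of at least 60% at 2 (3.17%) and 101 (1.06%). The lower limit was set after the values were seen and takes in the sites whose repetition prompted the measure, 2 of them at the COL4A2 repeat. The remaining 58 collagen GBR were at or below 37.4%.

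The GRE match nearest to the summit is given for other blocked and shared sites, to show how they vary among collagen genes.
COL6A3 site 2: GGAACATCCTCTCCC
COL6A3 site 3: AGAACGTCATGTGCT
COL7A1 site 1: AGAACACTATGCCCC
COL9A3 site 1: GGAACACACCGTGCC
COL15A1 site 1: GGTAGAATTTGTTCT
COL1A2 site 1: AGAACATACTGTTTC
COL8A1 site 1: GGGACATCATCTCCC
COL4A4/COL4A3 site 1: AGTACTGTCTGTGCC
COL4A6 site 1: TGAACAAGCTGTTCT
COL28A1 site 1: GGTACAATGTGTACC
The COL28A1 match, 28 bp from the summit, had no mismatch, and the other 9 had 1 each. The matches of COL7A1 site 1, COL1A2 site 1 and COL4A4/COL4A3 site 1 lay 21, 9 and 3 bp from the summit, whereas those of COL6A3 site 2 and COL8A1 site 1 lay 372 and 282 bp away. No sequence occurred at more than 1 collagen GBR as the nearest match, except the COL4A2 repeat match, which was nearest at 2.

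The number of collagen GBR differed between the 6 lists, and so did the size of the lists. There were 10 collagen GBR among 2582 GBR in siNS/siNS (0.387%), 63 of 9533 in siHic5/siNS (0.661%), 13 of 2451 in siCHD9/siHic5 (0.53%), and 20 of 3383 in siBRM/siHic5 (0.591%). In the absence of Hic-5 depletion there were 4 of 1415 in siCHD9/siNS (0.283%) and 4 of 1278 in siBRM/siNS (0.313%). The 95% Wilson interval, which covers counting error only, was 0.211 to 0.711% for siNS/siNS and 0.517 to 0.845% for siHic5/siNS, so that the intervals overlapped. The number of collagen genes with at least 1 GBR was 7 in siNS/siNS, 26 in siHic5/siNS, 9 in siCHD9/siHic5, 13 in siBRM/siHic5, 3 in siCHD9/siNS and 3 in siBRM/siNS.

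Collagen genes had a siHic5/siNS GBR more often than protein-coding genes in general, 26 of 44 (59.1%) against 36.5% of 19970. The collagen genes are long, with a median length of 144 kb against 27.5 kb for all protein-coding genes. Among genes of at least 100 kb the shares were 17 of 26 (65.4%) and 52.3%, and among shorter genes they were 9 of 18 (50%) and 32.9%. For siNS/siNS the shares were 7 of 44 (15.9%) against 13.7%, for siCHD9/siHic5 9 of 44 (20.5%) against 13.2%, and for siBRM/siHic5 13 of 44 (29.5%) against 17.8%. Per length, the 10.54 Mb within 50 kb of the collagen genes held 5.98 GBR per Mb in siHic5/siNS, and the territory of all protein-coding genes held 3.85. In siNS/siNS the densities were 0.949 and 1.02 GBR per Mb.

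Most collagen GBR of the siHic5/siNS list were blocked. A total of 53 of 63 (84.1%, Wilson 73.2 to 91.1%) had no siNS/siNS peak, and 10 were shared. The share over all siHic5/siNS GBR was 74.0%, inside this interval. With 1 score threshold for all lists, given below, 38 of 42 collagen GBR were blocked (90.5%), against 76.1% of all 6387 GBR. No interval was computed for that setting, so the comparison with counting error covers the lists as deposited only. The blocked GBR were weaker. Their −log10 p-value, the peak caller's score for enrichment over input, ranged from 12 to 60.2 with a median of 19.4, and that of the shared collagen GBR ranged from 27.1 to 97.5 with a median of 48. The medians over all blocked and all shared GBR were 18.7 and 54.7. When the list was divided into 3 equal parts by −log10 p-value, 6 of the 15 collagen GBR in the strongest part were blocked (40%, against 37.4% of all GBR there). In the middle part 26 of 27 were blocked (96.3% against 87.7%), and in the weakest part all 21 were (100% against 97.1%). Only 2 collagen GBR were among the 1000 strongest of the list, COL4A2 site 1 at rank 502 and COL23A1 site 1 at rank 511, and both were shared.

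**Figure D1:**
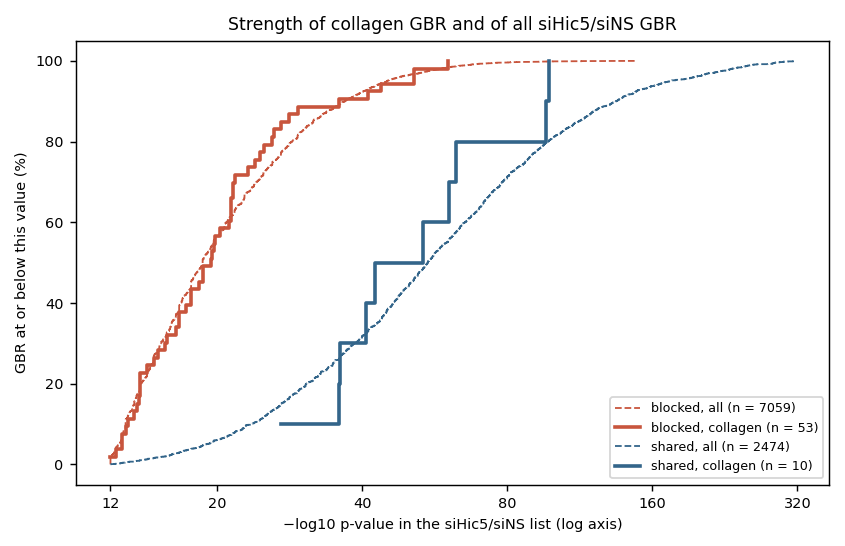
Cumulative share of GBR (y axis, %) by their siHic5/siNS −log10 p-value (x axis, log scale), for blocked (red) and shared (blue) GBR, with solid lines for collagen GBR and dashed lines for all GBR. The 53 blocked collagen GBR follow the line of all blocked GBR, with medians of 19.4 and 18.7, and the 10 shared collagen GBR run from 27.1 to 97.5.

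Blocked collagen GBR were rarely called when CHD9 or BRM was depleted together with Hic-5. Of the 53, 4 were called in siCHD9/siHic5 (7.55%, against 9.45% of all blocked GBR) and 10 in siBRM/siHic5 (18.9% against 16.7%). Neither list held 42 of them (79.2% against 79.5%) and both held 3 (5.66% against 5.65%). The siBRM/siHic5 list alone held 7 (13.2% against 11.1%) and the siCHD9/siHic5 list alone held 1 (1.89% against 3.80%). None of the 53 was called in siCHD9/siNS or siBRM/siNS, where 2.46% of all blocked GBR were. A count of 0 read as up to 3 counts allows a share of up to 5.66%, and the Wilson interval reaches 6.76%. These shares were thus close to those over all blocked GBR.

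The shared collagen GBR were mostly called in the doubly depleted lists. Of the 10, 8 were called in siCHD9/siHic5 (67.7% of all shared GBR were) and 9 in siBRM/siHic5 (85.7% of all shared GBR). The same 4 were called in siCHD9/siNS and in siBRM/siNS, where 50% and 48.9% of all shared GBR were called. These 4 were in all 6 lists, which makes 6.35% of the collagen GBR against 9.25% of all siHic5/siNS GBR. At the other end, 42 of 63 collagen GBR were called in no list but siHic5/siNS (66.7% against 58.7%). Calls followed strength in this list. Of the blocked collagen GBR, siBRM/siHic5 held 4 of the 6 in the strongest part, 6 of 26 in the middle part and 0 of 21 in the weakest part, where it held 55.2%, 14.6% and 3.89% of all blocked GBR. For siCHD9/siHic5 the counts were 1 of 6, 3 of 26 and 0 of 21, beside 31.9%, 7.65% and 2.43%. The lists do not share a threshold either, since the lowest −log10 q-value, the score adjusted for multiple testing, was 14.2 in siBRM/siHic5 and between 7.26 and 8.91 in the others. With 14.2 applied to every list, 23 of 38 blocked collagen GBR were absent from siBRM/siHic5 (60.5%) instead of 43 of 53 (81.1%), and 34 of 38 were absent from siCHD9/siHic5 (89.5%) instead of 49 of 53 (92.5%). At the same threshold 65.1% and 91.8% of all 4860 blocked GBR were absent from these lists. In these absences the blocked collagen GBR were thus close to the background there too.

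**Figure D2:**
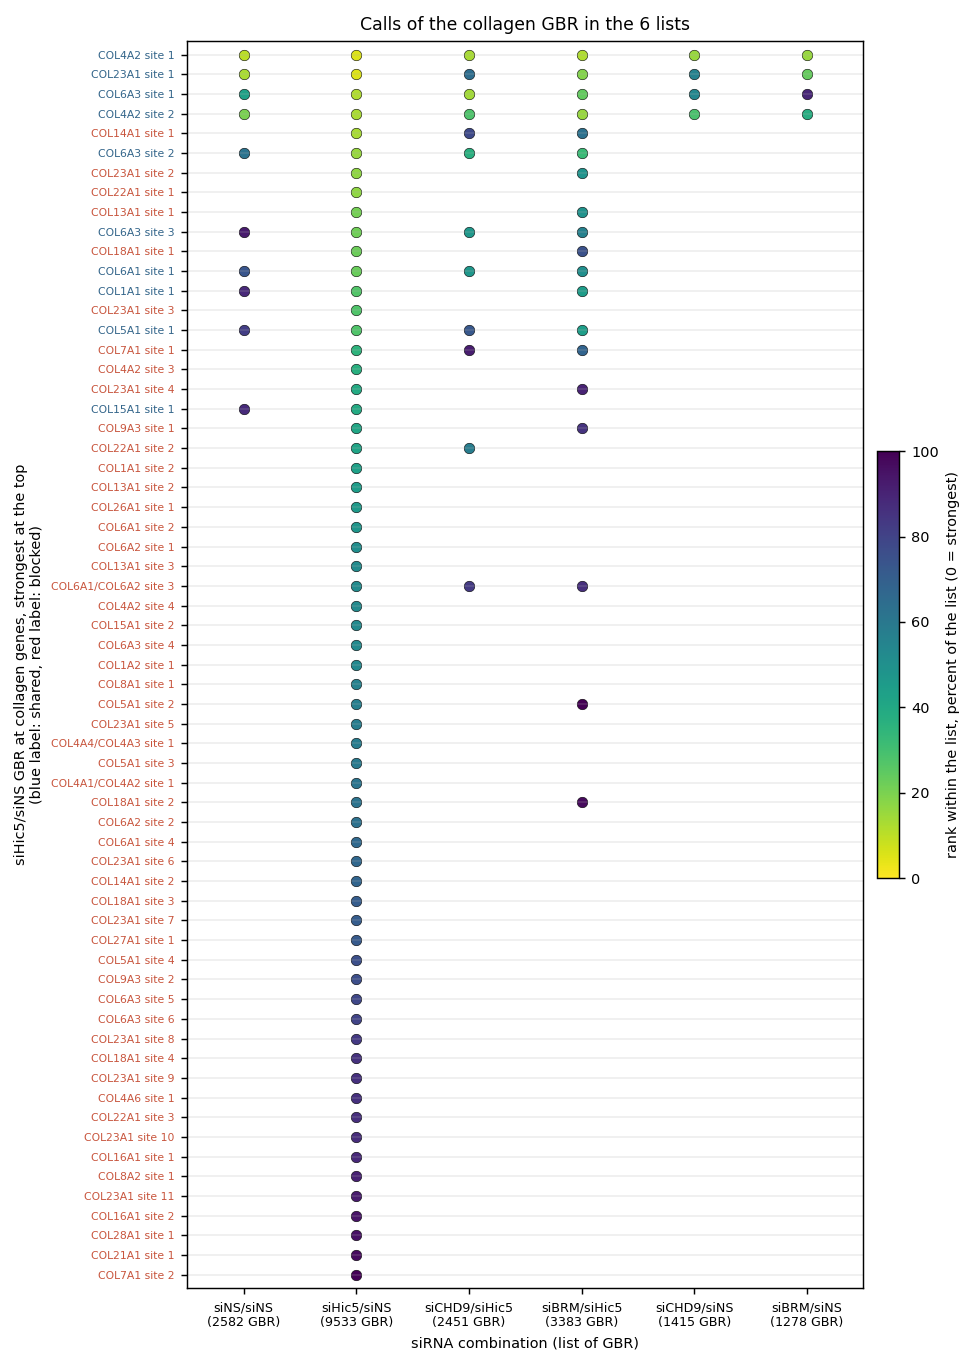
Calls of the 63 collagen GBR of the siHic5/siNS list (rows, strongest at the top, blue labels shared and red labels blocked) in the 6 lists (columns). A point marks a call and its color gives the rank as a percent of the list; only the 4 shared sites at the top left have points in all 6 columns, and 42 rows have a point in the siHic5/siNS column alone.

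The genes differed widely in how many GBR they had. COL23A1 led with 11, as many as or more than which were found at only 24 of 19970 protein-coding genes (0.12%), followed by COL6A3 with 6 and COL4A2 with 5. These counts are not adjusted for gene length, and COL23A1 is 353 kb long. Per Mb of the gene and its flanks, COL23A1 had 24.3 GBR, fewer than COL6A1 (32.4) and COL6A3 (31.5). COL5A1, COL6A1 and COL18A1 had 4 each. COL6A2, COL13A1 and COL22A1 had 3 each, and COL1A1, COL7A1, COL9A3, COL14A1, COL15A1 and COL16A1 had 2 each. A single GBR was found at COL1A2, COL4A1, COL4A3, COL4A4, COL4A6, COL8A1, COL8A2, COL21A1, COL26A1, COL27A1 and COL28A1. No GBR of any list was found at COL2A1, COL3A1, COL4A5, COL5A2, COL5A3, COL6A5, COL6A6, COL9A1, COL9A2, COL10A1, COL11A1, COL11A2, COL12A1, COL17A1, COL19A1, COL20A1, COL24A1 and COL25A1. Shared GBR lay at 7 genes (COL1A1, COL4A2, COL5A1, COL6A1, COL6A3, COL15A1 and COL23A1), and the GBR of the other 19 genes were all blocked. Since 3 GBR lay within 50 kb of 2 collagen genes, they count for both.

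**Figure D3:**
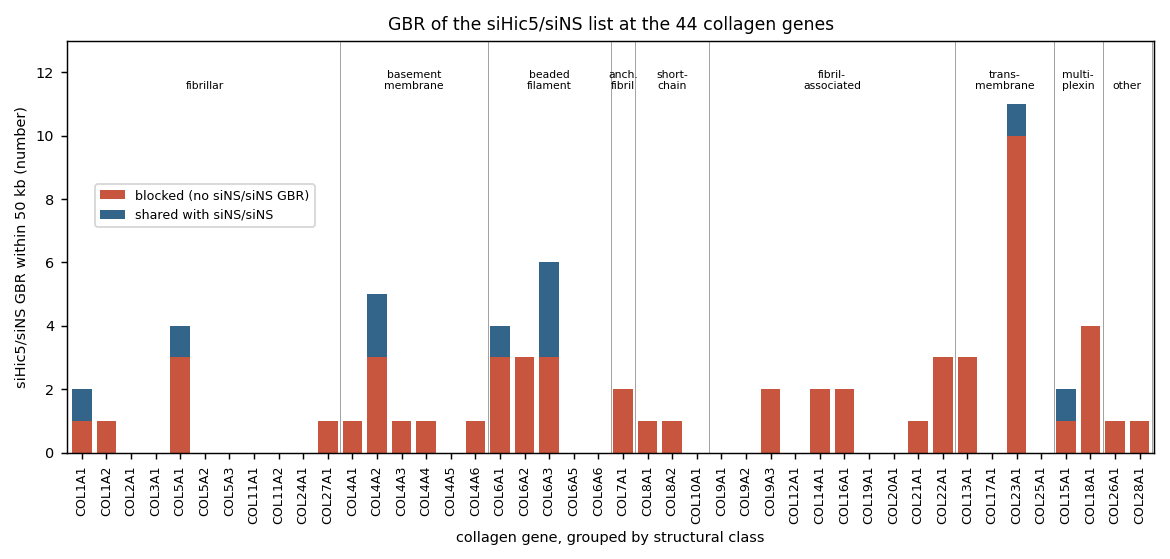
Number of siHic5/siNS GBR (y axis) at each of the 44 collagen genes (x axis, grouped by structural class; the class with COL7A1 alone is the anchoring fibril), split into blocked (red) and shared (blue). COL23A1 stands highest with 11, of which 10 are blocked, and 18 genes have no bar.

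By structural class, the beaded filament collagens had 12 GBR in 0.873 Mb (13.7 per Mb) and the multiplexins 6 in 0.436 Mb (13.8 per Mb). The highest density, 15.2 per Mb, was that of the anchoring fibril class, which is COL7A1 alone with 2 GBR. The transmembrane collagens had 14 GBR (9.56 per Mb), 11 of them at 1 gene. The short-chain network genes had 2 GBR (3.77 per Mb) and the unclassified COL26A1 and COL28A1 also 2 (3.47 per Mb). The 11 fibrillar genes had 8 GBR (3.28 per Mb), the 6 basement membrane genes 7 (4.61 per Mb) and the 10 fibril-associated genes 10 (3.89 per Mb). Beside a list in which 74.0% of GBR were blocked and 26% shared, all 10 GBR of the fibril-associated class were blocked, and 4 of the 12 of the beaded filament class were shared. The counts per class are small, and a few genes carry most of each.

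Among the fibrillar collagens, which form the striated fibrils of bone, skin and tendon, GBR were found at 4 of 11 genes. COL1A1, which encodes the α1 chain of type I collagen, the main protein of bone, had its strongest GBR 8.95 kb upstream of its start (chr17:50210262-50210869, intergenic). This site ranked 2577 in siHic5/siNS with a −log10 p-value of 36, 2289 in siNS/siNS with 14.1 and 1527 in siBRM/siHic5 with 35.5, and it was not called in siCHD9/siHic5. COL1A1 site 2, 5.75 kb beyond the other end of the gene (chr17:50178088-50178675), was blocked and called in siHic5/siNS alone. COL1A2, the gene of the partner chain, had 1 blocked GBR 26.2 kb upstream (chr7:94368462-94368881, rank 5065, −log10 p 21.2).

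COL5A1, whose chain belongs to the type V collagen that limits fibril thickness, had 4 GBR. The strongest, 39.2 kb upstream (chr9:134602379-134603208), was shared, with a −log10 p-value of 35.7 in siHic5/siNS (rank 2617), 14.9 in siNS/siNS (rank 2114), 15 in siCHD9/siHic5 (rank 1783) and 36 in siBRM/siHic5 (rank 1498). COL5A1 site 2, 9.95 kb further out, was blocked and also called in siBRM/siHic5 near the end of that list (rank 3382 of 3383). The other 2 were blocked intronic sites 10.3 and 26.6 kb downstream of the start. COL27A1, a fibrillar collagen of cartilage, had 1 blocked GBR 39.6 kb outside the gene, in an intron of AKNA (chr9:114351981-114352298, rank 6878, −log10 p 16.4).

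The basement membrane collagens of type IV form sheet-like networks under epithelia and around vessels, and their genes lie in head-to-head pairs. COL4A2 site 1 (chr13:110480562-110481060, intron, 174 kb from the start) had a −log10 p-value of 58.9 in siNS/siNS, 97.5 in siHic5/siNS, 56.2 in siCHD9/siHic5, 92.1 in siBRM/siHic5, 41 in siCHD9/siNS and 37.6 in siBRM/siNS. Its ranks in the same order were 265, 502, 319, 399, 219 and 195. COL4A2 site 2 (chr13:110481853-110482367, intron) had 40, 60.5, 32.2, 78.6, 27.5 and 22.6, with ranks 517, 1208, 682, 519, 407 and 484. These sites at the ends of the GRE repeat were therefore called in every list and stood in the upper part of each.

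The other COL4A2 sites were blocked, called in siHic5/siNS alone and intronic. Site 3 lay 102 kb from the start (chr13:110409225-110410077, −log10 p 28.2) and site 4 lay 89.8 kb from it. A further one, 40.6 kb into COL4A2 (chr13:110347557-110348370, rank 5856, −log10 p 18.7), was also within 50 kb of COL4A1 and was the only GBR of that gene. COL4A3 and COL4A4, whose chains are known from the kidney filter, shared 1 blocked GBR in a COL4A3 intron 15.7 kb from its start (chr2:227180186-227180566, rank 5576, −log10 p 19.5). COL4A6 had 1 blocked intronic GBR 240 kb from its start (chrX:108198375-108198741, rank 8226, −log10 p 13.8), and its partner COL4A5 had none.

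The beaded filament collagens of type VI surround cells of muscle, skin and cartilage. None of the GBR of COL6A1, COL6A2 and COL6A3 lay inside these genes. COL6A3 had 3 shared and 3 blocked GBR. Site 1, 20.9 kb upstream (chr2:237434652-237435520), had a −log10 p-value of 24.1 in siNS/siNS (rank 1101), 62.6 in siHic5/siNS (rank 1144), 53.5 in siCHD9/siHic5 (rank 337), 57.5 in siBRM/siHic5 (rank 816), 17.9 in siCHD9/siNS (rank 761) and 12.5 in siBRM/siNS (rank 1143 of 1278). It was thus high within the siCHD9/siHic5 list and near the end of the siBRM/siNS list.

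COL6A3 site 2, 18.7 kb upstream and 2.18 kb from site 1 (chr2:237432316-237433667), had 18 in siNS/siNS, 53.6 in siHic5/siNS, 26.6 in siCHD9/siHic5 and 46.1 in siBRM/siHic5, and was absent from siCHD9/siNS and siBRM/siNS. COL6A3 site 3, 33.5 kb beyond the far end of the gene (chr2:237290215-237290757), was called in the same 4 lists with 13.5, 42.5, 21.7 and 29.9. The blocked sites 4, 5 and 6 were called in siHic5/siNS alone. COL6A3 site 5 lay 1.27 kb from site 1, so that 3 GBR stood within a few kb of each other upstream of the gene, 2 shared and 1 blocked.

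COL6A1 and COL6A2 are neighbors on chromosome 21. COL6A1 site 1, 34.1 kb beyond its end (chr21:46038770-46039420), was shared, with a −log10 p-value of 16 in siNS/siNS (rank 1898), 40.7 in siHic5/siNS (rank 2191), 21.7 in siCHD9/siHic5 (rank 1155) and 32.6 in siBRM/siHic5 (rank 1710). Site 2 lay 6.84 kb upstream of COL6A1 and site 4 49.2 kb upstream, and both were blocked. A blocked GBR between the 2 genes (chr21:46053272-46054272, rank 4975) was within 50 kb of both and was called in siCHD9/siHic5 and siBRM/siHic5 as well, with 21.6 in siHic5/siNS, 13.5 and 20.5. The strongest GBR of COL6A2 alone lay 37.2 kb upstream of it (chr21:46060313-46061067, rank 4872, −log10 p 21.8).

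COL7A1 encodes the anchoring fibril that ties the skin's basement membrane to the dermis. Its site 1 was the nearest to its own gene's start of all 63, 3.18 kb upstream (chr3:48598294-48598940). This site was blocked but called in both doubly depleted lists, with a −log10 p-value of 29.4 in siHic5/siNS (rank 3356), 12.3 in siCHD9/siHic5 (rank 2259) and 25.4 in siBRM/siHic5 (rank 2301). Site 2 fell in an untranslated region of COL7A1 and lay 0.469 kb from the start of the neighboring gene UCN2 (rank 9492 of 9533).

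Of the short-chain network collagens, COL8A1, a component of the matrix of endothelial cells, had 1 blocked intronic GBR 21.6 kb from its start (chr3:99659964-99660349, rank 5344, −log10 p 20.3). COL8A2 had 1 blocked GBR 24.6 kb from its start (chr1:36149668-36150024, rank 8673, −log10 p 13), which lay 0.368 kb from the start of TRAPPC3. COL10A1, a marker of hypertrophic cartilage, had none.

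The transmembrane collagens are single-pass membrane proteins with a collagenous outer part. COL23A1 is 353 kb long, and all of its 11 GBR were intronic, between 61 and 166 kb from its start. Site 1 (chr5:178447686-178448732, 142 kb) was shared, with a −log10 p-value of 52.3 in siNS/siNS (rank 324), 96.3 in siHic5/siNS (rank 511), 16.7 in siCHD9/siHic5 (rank 1583), 70.6 in siBRM/siHic5 (rank 623), 17.5 in siCHD9/siNS (rank 791) and 29.9 in siBRM/siNS (rank 300). Its rank was thus below the middle of both lists with siCHD9 and well above it in the other 4 lists.

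COL23A1 site 2 (chr5:178527300-178528038, 62.8 kb) was the strongest blocked GBR of the gene, with 51.3 in siHic5/siNS (rank 1567) and 33.7 in siBRM/siHic5 (rank 1644), and it was not called in siCHD9/siHic5. Site 3 (chr5:178452947-178453553, 137 kb, rank 2615, 35.7) was called in siHic5/siNS alone, and site 4 (27.1) also in siBRM/siHic5 (19.6, rank 3059). The remaining 7 COL23A1 sites were called in siHic5/siNS alone, with −log10 p-values from 12.9 to 19.7. Several were close neighbors. Sites 9 and 10 were 0.74 kb apart, sites 3 and 11 were 1.13 kb apart and sites 2 and 5 were 1.79 kb apart.

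COL13A1, which is concentrated at neuromuscular junctions, had 3 blocked GBR. Site 1, 32.5 kb upstream (chr10:69769079-69769792), had a −log10 p-value of 43.7 in siHic5/siNS (rank 1974) and 33.6 in siBRM/siHic5 (rank 1664), and it was not called in siCHD9/siHic5. Site 3 lay 3.86 kb from it, and site 2 was intronic, 18 kb from the start. COL17A1, a hemidesmosome component, and COL25A1 had no GBR.

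**Figure D4:**
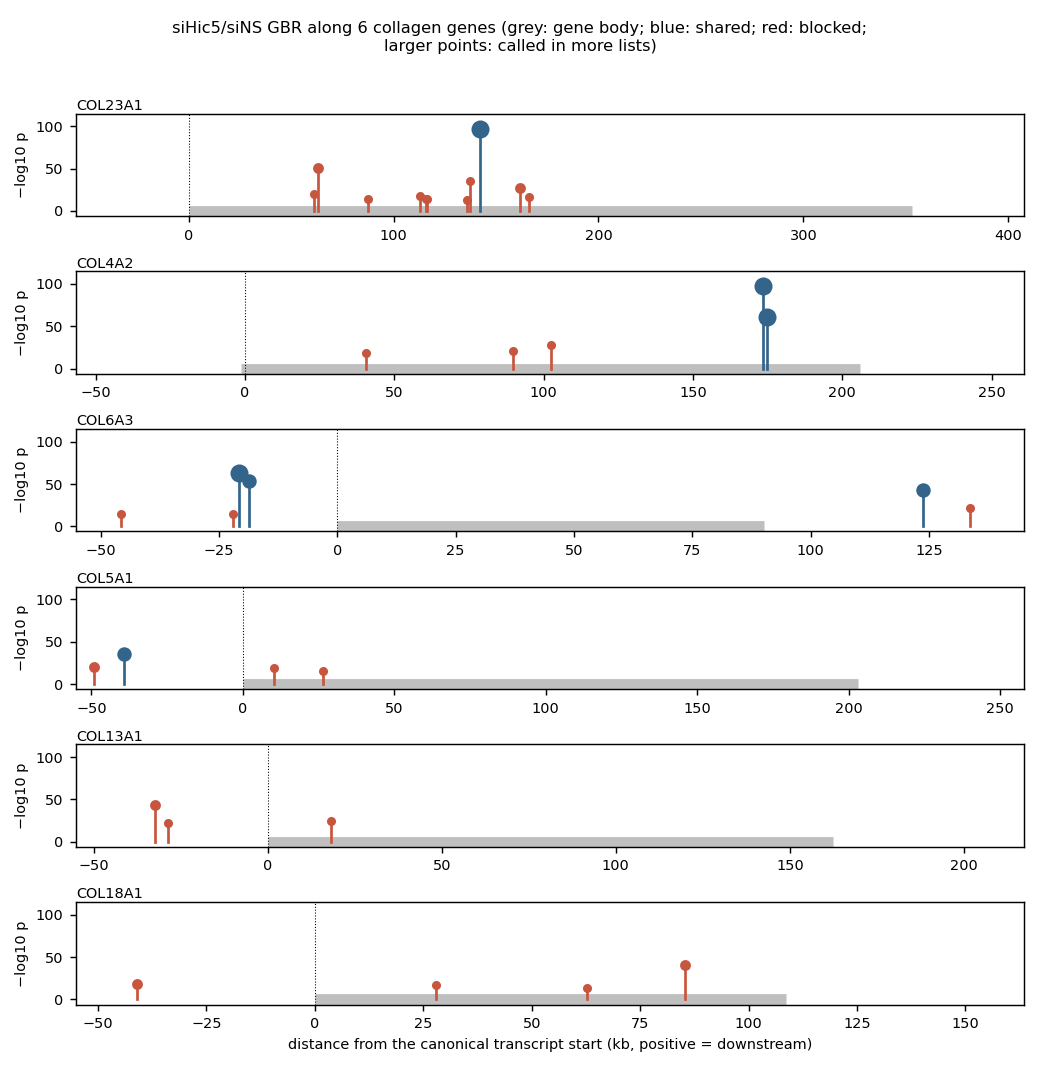
GBR of the siHic5/siNS list along 6 collagen genes, by distance of the summit from the canonical transcript start (x axis, kb) and −log10 p-value (y axis), with gene bodies in grey, shared GBR in blue, blocked GBR in red, and larger points for calls in more lists. The 11 COL23A1 sites lie between 61 and 166 kb inside the gene, the 2 shared COL4A2 sites sit 174 and 175 kb from the start, and the COL6A3 sites all lie outside the gene.

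The multiplexins COL15A1 and COL18A1 are basement-membrane-associated proteoglycans, and a fragment of the second is endostatin. COL18A1 had 4 blocked GBR. Site 1 (chr21:45490223-45490868, intron, 85.4 kb from the start) had 41.2 in siHic5/siNS (rank 2151) and 23.4 in siBRM/siHic5 (rank 2534), and site 2, 40.9 kb upstream, had 18.7 and 18.5 in the same lists. COL15A1 site 1 (chr9:99046660-99047245, intron, 103 kb) was the weakest shared collagen GBR, with 27.1 in siHic5/siNS (rank 3756) and 14.2 in siNS/siNS (rank 2275). It was the 1 shared collagen GBR that neither doubly depleted list held.

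The fibril-associated collagens attach to the surface of fibrils. Their strongest sites were both blocked and intronic. COL14A1, a collagen of skin and tendon, had its site 1 at the top of the blocked collagen GBR. It (chr8:120102905-120103600) ranked 1229 in siHic5/siNS with a −log10 p-value of 60.2 and was called in siCHD9/siHic5 (14.2, rank 1906) and siBRM/siHic5 (26.9, rank 2124). It held a GRE match with no mismatch 3 bp from the summit. COL22A1, a collagen of the muscle-tendon junction, had its site 1 at chr8:138679842-138680478 with 51.2 (rank 1575), in siHic5/siNS alone. COL22A1 site 2, 82.9 kb from the start, was the 1 blocked collagen GBR called in siCHD9/siHic5 (18.3, rank 1422) and not in siBRM/siHic5.

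COL9A3, a cartilage collagen, had 2 blocked GBR in DIDO1, of which site 1 (chr20:62882242-62882813, intron, 41.4 kb beyond COL9A3) had 26.3 in siHic5/siNS (rank 3889) and 20.8 in siBRM/siHic5 (rank 2884). COL16A1 site 1 (chr1:31690818-31691161, 13.5, rank 8421) and COL21A1 site 1 (chr6:56225830-56226171, 12.3, rank 9260) were intronic, blocked and near the end of the siHic5/siNS list. Outside the structural classes, COL26A1 had 1 blocked intronic GBR 39.4 kb from its start (chr7:101401957-101402473, 23.9, rank 4369) and COL28A1 had 1 blocked GBR 17.8 kb upstream (chr7:7553482-7553783, 12.7, rank 9100).

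Nearly every collagen GBR of the other lists was also in siHic5/siNS, as were most GBR of the doubly depleted lists in general. In the whole siHic5/siNS list, 667 blocked and 1676 shared GBR had a match among the 2451 of siCHD9/siHic5. For the 3383 of siBRM/siHic5 these counts were 1182 and 2120. The collagen exceptions were 2. At COL22A1 a GBR 22.7 kb upstream (chr8:138936590-138936886) was called in siCHD9/siHic5 alone, with a −log10 p-value of 13.1 (rank 2113 of 2451). In an intron of COL21A1 (chr6:56297658-56298003) a GBR was called in siBRM/siHic5 alone, with 19.4 (rank 3078 of 3383). Both were weak within their lists.

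Collagen GBR lay away from the starts of their collagen genes. No summit was within 1 kb of the start of the collagen gene, 1 was within 5 kb and 3 were within 10 kb, and the median distance was 45.7 kb. In all, 36 of 63 summits were in collagen gene bodies, 22 were intergenic and 5 were in other protein-coding genes. The summit lay in a protein-coding gene body for 41 of 63 (65.1%, against 48.9% of all siHic5/siNS GBR), in introns for 39, in untranslated regions for 2 and in coding exons for 0. The collagen GBR were selected for lying in or near gene bodies and the whole list was not, so these 2 shares are not comparable. Of the 63, 49 had a collagen gene as the nearest protein-coding start, and 14 were nearer to another gene's start. Among the latter, COL8A2 site 1 lay 0.368 kb from the start of TRAPPC3 and COL7A1 site 2 lay 0.469 kb from that of UCN2. None of the 32 collagen promoter windows in RefSeq, from 250 bases before to 50 bases after the start, was overlapped by a peak of any list. For the distances from starts and the promoter windows, no share over all GBR or all genes is given here. Another siHic5/siNS GBR lay within 5 kb of 20 collagen GBR (31.7%, against 22.2% of all).

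GRE matches close to the summit were less frequent under collagen GBR than under siHic5/siNS GBR in general. In the 1 kb centered on the summit, 27 of 63 collagen GBR (42.9%, Wilson 31.4 to 55.1%) held at least 1 match, against 53.6% of all GBR. In the central 200 bp the shares were 17 of 63 (27.0%, Wilson 17.6 to 39.0%) and 46.1%, so that the difference was larger than counting error in the narrow window and not in the wide one. A match with no mismatch was found at 2 of 63 (3.17%), COL14A1 site 1 and COL28A1 site 1, and at 11.2% of all GBR. Windows 5 kb to either side held a match within 1 kb in 17.5% for collagen GBR and 12.5% for all, and within 200 bp in 2.38% for both. In the 1 kb window the share at blocked collagen GBR was 41.5% (48.9% of all blocked), and 5 of the 10 shared collagen GBR held a match (66.9% of all shared). In the 200 bp window 15 of 53 blocked collagen GBR held one (28.3%, against 41.1% of all blocked), as did 2 of 10 shared ones (60.5% of all shared). Over all GBR, blocked sites held a match less often, and collagen GBR were more often blocked (84.1% against 74.0%). The comparison with all GBR was not adjusted for this or for the strength of the GBR. No interval was computed for blocked or shared collagen GBR alone, so whether the difference within either exceeds counting error was not tested.

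The AP-1 consensus, the site of the Fos and Jun factors, was found in the 1 kb window of 27 of 63 collagen GBR (42.9%, Wilson 31.4 to 55.1%) against 37.1% of all. It was found in 25 of 53 blocked collagen GBR (47.2%, against 37.3% of all blocked) and in 2 of 10 shared ones (36.5% of all shared). The ETS consensus (CAGGAA or CCGGAA followed by A or G and then C or T) was found at 28 of 63 (44.4%, Wilson 32.8 to 56.7%) against 37.8% of all. It was found in 22 of 53 blocked collagen GBR (41.5%, against 38.8% of all blocked) and in 6 of 10 shared ones (35.0% of all shared). The windows to the sides held it in 31.0% and 27.4%, so that a match to it was also common 5 kb away from the summits. COL13A1 site 1 held 3 AP-1 and 4 ETS matches and COL18A1 site 2 held 4 AP-1 matches. At least 1 of the 3 patterns was present at 55 of 63 collagen GBR (87.3%) and at 83.8% of all. Mean GC content of the windows was 50.5% (SD 7.71 across GBR) for collagen GBR and 47.7% (SD 8.4) for all. The part of GC content in the motif shares was not tested.

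**Figure D5:**
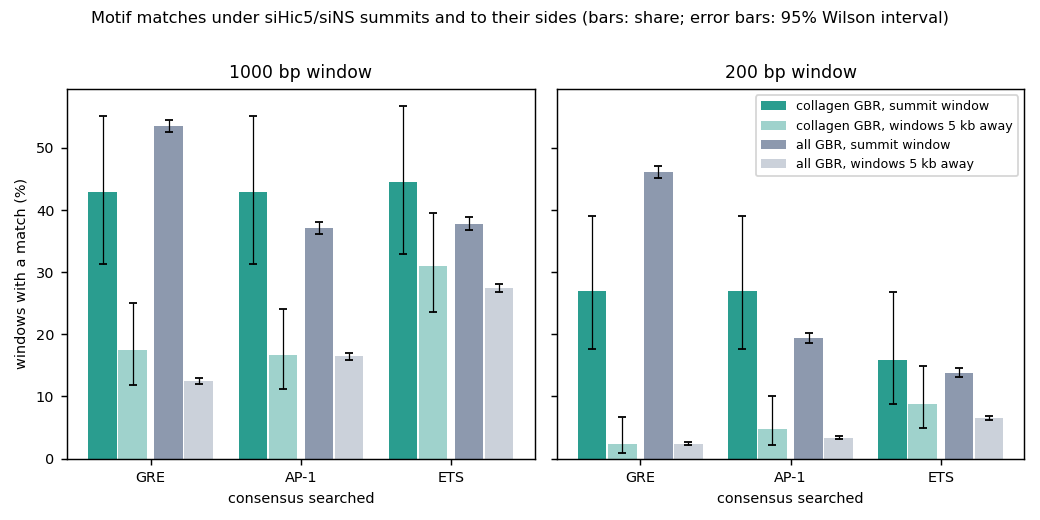
Share of windows with a GRE, AP-1 or ETS match (y axis, %) under collagen GBR (green) and all siHic5/siNS GBR (grey), with paler bars for windows 5 kb to either side and error bars for the 95% Wilson interval, in windows of 1000 bp (left) and 200 bp (right). GRE matches stand at 27.0% for collagen GBR and 46.1% for all GBR in the 200 bp window, and AP-1 at 27.0% and 19.4%.

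The genes that make, secrete, break down and bind collagens were counted by the same rule. Of 58 such genes, 33 had a siHic5/siNS GBR (56.9%, against 36.5% of all protein-coding genes) and 18 a siNS/siNS GBR (31.0% against 13.7%). By length, 12 of the 18 genes of at least 100 kb had a siHic5/siNS GBR (66.7% against 52.3%), as did 21 of the 40 shorter ones (52.5% against 32.9%). The 58 genes had 63 siHic5/siNS GBR, of which 38 were blocked (60.3%, Wilson 48.0 to 71.5%) and 25 shared. The blocked share over all siHic5/siNS GBR, 74.0%, lay above this interval and inside that of the collagen GBR. The genes for chain modification and folding had one at 9 of 19, led by P4HA1, a subunit of prolyl 4-hydroxylase (rank 343, chr10:73117807-73118444). Those for export, propeptide removal and cross-linking had one at 11 of 17, led by the lysyl oxidase LOXL3 (rank 189, chr2:74560291-74560988). Of the collagen degradation genes, 7 of 13 had one, led by the membrane-bound collagenase MMP14 (rank 1500, chr14:22807527-22807999), and 7 of their 9 GBR were blocked (77.8%), a share close to that of the whole list. Of the collagen receptors, 6 of 9 had one, led by the integrin ITGA10 (rank 378, chr1:145891837-145892549). The leading GBR of all 4 lists were shared and called in all 6 siRNA combinations. LOXL3, P4HA1 and ITGA10 thus had stronger GBR than any collagen gene, whose best rank was 502.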

How the data were processed

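GR ChIP-seq of U2OS-GRα cells gave 12 ChIP and 6 input libraries, grouped by siRNA combination from the sample labels. The authors aligned trimmed reads with BWA (build GRCh38/hg38), discarded duplicates and mitochondrial reads, pooled the replicates of a combination, and took as GBR the MACS2 peaks that passed IDR. Tool versions are not given in the sources used here. Each deposited list gives per peak a signal value (enrichment), a −log10 p-value and a −log10 q-value as scores from MACS2, and a summit. The deposited lists hold no read counts, so the depth of the libraries is unknown from them. Depth and input quality act on the scores and on which weak peaks are called, so ranks were read within a list and scores are given side by side without a test.

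Summits were assigned to the 44 genes with GENCODE release 44 (50 kb around the gene body). Peaks were matched between lists by an overlap of at least 1 bp. No peak ended beyond its chromosome (0) or lay on a name absent from the reference (0). The members and gene lists were chosen with earlier results of these data known. Every member with a GBR is named. Sites are given in full where they are the strongest of a gene, among the 6 strongest blocked or shared, in all 6 lists, or outside the siHic5/siNS list. The measure of tandem repetition was added after the sequences were seen. Motifs were searched as consensus sequences on both strands. Wilson intervals (95%) cover counting error only, and a count of 0 allows up to 3 counts. No test was run. Promoter windows came from RefSeq. Alternatives changed the distance, the overlap rule, the threshold of the lists and the motif search. Overlap counting and motif search were checked on simulated data. Python 3.11.15, pandas 2.3.3, SciPy 1.17.1, pysam 0.24.0, Matplotlib 3.10.9, samtools 1.23.1 and bedtools 2.31.1 were used.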

Additional observations from a re-analysis of the deposited data

How the results depend on the processing

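Of 52 alternatives, 38 left the value within 1.5 times the reported count or within the 95% interval of the reported share. The number of collagen GBR in siHic5/siNS, 63 as reported, was 36 within gene bodies, 40 within 10 kb, 105 within 100 kb and 2 among the 1000 strongest peaks of each list, and the number of genes, 26 as reported, was 15, 17, 32 and 2. The blocked share stayed between 81.0 and 90.5% under all settings but the 1000 strongest peaks, where it was 0% of 2, and then no share of blocked GBR could be given. Its highest value, 90.5%, came with 1 −log10 q-value threshold for all lists, where 76.1% of all GBR were blocked. With 1 −log10 q-value threshold for all lists, 60.5% of blocked collagen GBR were not called in siBRM/siHic5 (81.1% as reported). For shared collagen GBR the share not called in siBRM/siHic5, 10.0% as reported, was 0% with that threshold, 0% among the 1000 strongest peaks and 0% for GBR whose nearest protein-coding start is that of a collagen gene, and it was 25% within gene bodies and 20.0% within 10 kb, within 100 kb and with summits within 200 bp, on 4 to 20 GBR. The share with a GRE match, 42.9% as reported, was 27.0% in the 200 bp window and 3.17% with no mismatch allowed. Replicates could not be left out. No paired analysis was possible because each list pools the replicates of its combination. Weak GBR limit what can be said of calls that are absent from the shorter lists.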
